A study of Mus musculus with 16 samples.

Results

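Small leucine-rich proteoglycans are secreted proteins of the extracellular matrix. The 9 genes described here are Dcn (decorin), Bgn (biglycan), Aspn (asporin), Lum (lumican), Fmod (fibromodulin), Prelp (PRELP), Omd (osteomodulin), Ogn (osteoglycin) and Podn (podocan). They were chosen by symbol, with no measured value in the rule, and are 9 of the 52997 gene symbols in the count table. Earlier results of these data were known when the set was chosen, so shares over all genes are given as description. All 9 passed the filter on low counts, which left 13949 genes for testing. The cells were mesenchymal stromal cells (mSC), the fibroblast-like cells of the connective tissue between muscle fibres, sorted from hindlimb skeletal muscle of C57BL/6 mice at 8 weeks of age, with no transgene or deletion named in the labels. The mice had been injected intraperitoneally with PBS (phosphate-buffered saline) or CGRP (the neuropeptide calcitonin gene-related peptide, which sensory nerve endings release), and the cells were taken 4 h or 8 h afterwards. This gave 4 groups, PBS 4 h, CGRP 4 h, PBS 8 h and CGRP 8 h, with 4 biological replicates each, and every library was made from 1000 cells sorted in a double pass. The sources used here do not give the dose, the sorting gate, or whether a replicate was a mouse or a pool of mice.

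The core protein of the family is a curved stack of leucine-rich repeats that binds collagen fibrils and limits or guides their growth and spacing. Decorin and biglycan of class I carry chondroitin or dermatan sulphate chains, and several class II members, among them lumican and fibromodulin, can carry keratan sulphate chains. Members also bind growth factors such as TGF-beta and cell surface receptors such as Toll-like receptors. Fibroblasts of the connective tissue are the main source of decorin in skeletal muscle.

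The genes lie in clusters. On chromosome 13 Aspn (13:49544443-49567565), Omd (13:49582462-49592822) and Ogn (13:49608046-49624501) followed each other on the forward strand of mm10, with Ecm2 (extracellular matrix protein 2, a related leucine-rich repeat protein) just before them. On chromosome 10 Dcn (10:97479609-97518143) was followed on the same strand by Lum (10:97565128-97572703) and then Kera (keratocan, a class II member). Chromosome 1 held Prelp (1:133910304-133921414, reverse strand) and Fmod (1:134037254-134048277, forward strand) as neighbours. Podn (4:108014791-108096445, reverse strand) and Bgn (X:73483602-73495933, forward strand) have no other member beside them. All 9 are annotated as protein coding in GENCODE M21.

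The promoters of the chromosome 13 neighbours are shown because these genes lie side by side and because Omd and Ogn gave the lowest adjusted p-values of the family, with Podn, after CGRP at 8 h. Each run is the window from 250 bases before to 50 after the RefSeq start (GRCm38.p6, forward strand). Capitals mark letters of the TATA box (TATAAA), of the CCAAT box and of the E-box (CAGCTG), on either strand. The windows span chr13:49544193-49544492, chr13:49582212-49582511 and chr13:49607765-49608064.
Aspn: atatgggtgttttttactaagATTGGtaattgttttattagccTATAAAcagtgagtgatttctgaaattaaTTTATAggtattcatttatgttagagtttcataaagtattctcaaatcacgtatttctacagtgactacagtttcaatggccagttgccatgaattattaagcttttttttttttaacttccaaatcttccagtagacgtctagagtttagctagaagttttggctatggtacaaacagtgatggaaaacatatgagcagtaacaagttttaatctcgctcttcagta
Omd: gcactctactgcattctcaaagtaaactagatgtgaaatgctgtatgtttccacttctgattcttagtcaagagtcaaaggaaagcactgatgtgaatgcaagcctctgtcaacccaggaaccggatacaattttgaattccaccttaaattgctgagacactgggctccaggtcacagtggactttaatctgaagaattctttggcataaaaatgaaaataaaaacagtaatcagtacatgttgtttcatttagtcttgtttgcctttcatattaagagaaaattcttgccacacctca
Ogn: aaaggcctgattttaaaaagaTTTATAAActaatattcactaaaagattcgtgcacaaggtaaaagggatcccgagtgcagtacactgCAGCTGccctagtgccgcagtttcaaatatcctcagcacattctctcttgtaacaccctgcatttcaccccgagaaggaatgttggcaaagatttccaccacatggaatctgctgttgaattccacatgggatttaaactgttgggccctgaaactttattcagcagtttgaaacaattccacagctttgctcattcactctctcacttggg

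These windows were poor in G and C, with 31% in Aspn, 37.7% in Omd and 42.3% in Ogn, against 51% in Fmod, 55.3% in Prelp, 63.7% in Bgn and 77% and 63% in the windows of Podn. RefSeq windows were found for 7 of the 9 genes, 8 windows in all, with 2 for Podn. The letters TATAAA were in the windows of Aspn and Ogn, on both strands in each, and in 13.6% of the 32851 windows of all genes. The E-box letters CAGCTG were in Ogn, Bgn and 1 window of Podn, and in 16.3% of all windows. The GC box GGGCGG was in Bgn and 1 window of Podn (35.7% of all windows), and CCAAT in Prelp, Fmod and Aspn (37.4%). No window of the family held the full cyclic AMP response element TGACGTCA (1.79% of all windows), its inner part TGACG (20.8%), the AP-1 letters TGANTCA (7.81%), the SMAD letters GTCTAGAC (0.213%) or the NF-kB consensus (0.155%), on either strand. A match is a match of letters and not a measured binding site.

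The 16 libraries held between 6373713 and 10011920 counts. Across the family the lowest count in any library was 116, for Fmod, and 120, for Omd, where counting error alone is 9.28% and 9.13%. Expression is given as CPM, the count scaled to the TMM-adjusted library total. A log2 fold change is that of the fitted edgeR quasi-likelihood model, with a standard error derived from the F statistic of its test. A gene is said to have risen or fallen where its Benjamini-Hochberg adjusted p over all 13949 genes was under 0.05. Shares over all genes are those of this fit at this threshold, also where counts by other tools or at an unadjusted p stand beside them. Some libraries stood apart: 4 had the most genes detected (23294 to 25579, against 21138 to 22341 in the other 12), and in PBS 8 h replicates 1 to 3 1.77% to 2.45% of counts went to the gene model Gm10800, against 0.536% to 1.01% elsewhere. Of 12 defining mSC markers 11 were tested (Tcf21 was under 1 CPM on average), and the markers summed to between 29405 and 57217 CPM. Lymphocyte markers summed to 0.108 to 2.12 CPM with Gzma at 0. Macrophage and myeloid markers summed to 9.77 to 25.4 CPM, with 9 of 12 under 1 CPM on average. Endothelial markers summed to 81.45 to 144.4 CPM, although 8 of 10 were under 1 CPM on average, and muscle stem cell markers to 61.93 to 135.2 CPM.

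Decorin dominated the family. Per kilobase of exon, which allows levels of different genes to be set side by side, Dcn stood at 3225 ± 369 CPM per kb (SD over the 16 libraries). On that length it made up 59.2% of the family's summed level, a share that depends on the length used. Lum followed with 766 ± 211 CPM per kb, then Bgn with 543 ± 98.4, Ogn with 330 ± 78.4 and Prelp with 311 ± 38.1. Aspn with 118 ± 33.5 and Podn with 117 ± 27.2 CPM per kb were level with each other, Fmod had 57.4 ± 48.6, and Omd came last with 11.2 ± 3.43. By mean CPM, Dcn ranked 3 in the whole table, Bgn ranked 18 and Lum 39, whereas Omd ranked 5801.

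Neighbours in that order were not all separable. The ranges of Ogn and Prelp overlapped in each of the 4 groups, as did those of Aspn and Podn. Fmod also overlapped its neighbours Podn in PBS 4 h, Omd in CGRP 4 h and Aspn in CGRP 8 h. Lum lay above Bgn without overlap in both PBS groups, and their ranges overlapped in both CGRP groups. Dcn was above every other member without overlap in all 4 groups. With the mean transcript length in place of the joined exons, Dcn reached 10476 CPM per kb, and Bgn (2266) passed Lum (766), Prelp (507) passed Ogn (330) and Podn (255) passed Aspn (120), so these 3 pairs have no fixed order.

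**Figure D1:**
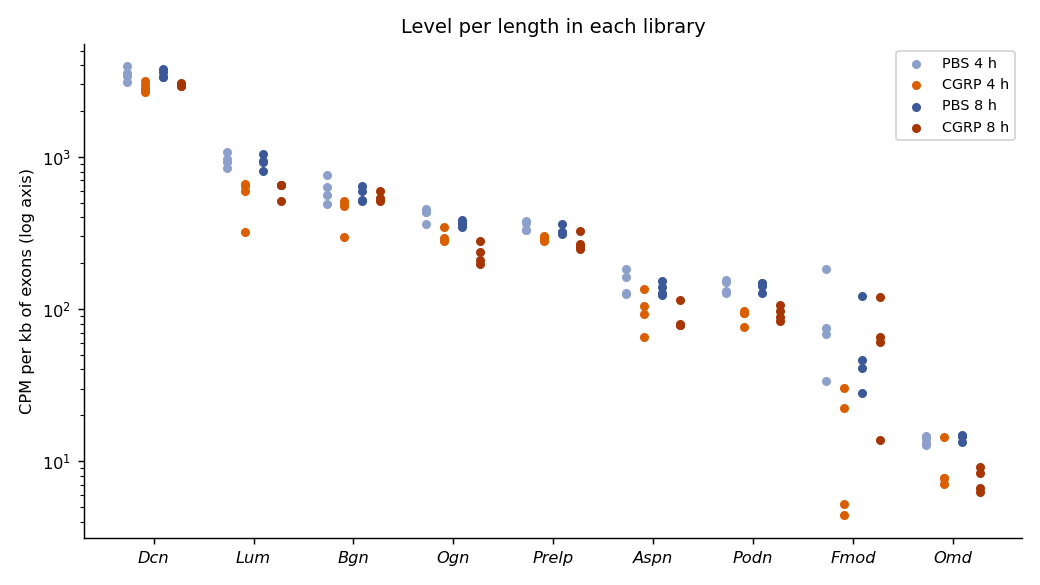
Level of each gene in each of the 16 libraries as CPM per kb of exon on a log axis, coloured by group. Dcn stands above the rest, with a mean of 3225 CPM per kb against 766 for Lum, and Fmod spreads more widely within groups than any other member.

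Members differed in how tightly replicates held together. The pooled coefficient of variation within groups was 6.84% for Dcn, 8.18% for Prelp, 9.58% for Podn and 10.9% for Ogn. It was 16.04% for Bgn, 17.1% for Lum, 20.6% for Aspn, 21.2% for Omd and 73.2% for Fmod.

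CGRP was followed at 4 h by lower transcript levels across the family. Of the 9 genes 7 fell, 0 rose, and Aspn and Fmod were lower without passing the test. At an unadjusted p under 0.05 all 9 were lower and 0 higher, with DESeq2 9 fell and 0 rose, and with limma-voom 7 fell and 0 rose. Among all genes tested 16.2% were called at 4 h by edgeR, 8.37% as lower and 7.84% as higher. DESeq2 called 1302 genes as lower and 1295 as higher, and limma-voom 1210 and 1159. The share over all genes at an unadjusted p was not counted. The median log2 fold change of the 9 was -0.56, against -0.00212 over all genes. With single libraries left out 3 to 7 of the 9 fell: 3 without PBS replicate 4 or CGRP replicate 1, 4 without PBS replicate 2 or CGRP replicate 3 or 4, 5 without PBS replicate 1 and 7 without either of the others. Aspn was called without PBS replicate 3, where Omd was lost, and without CGRP replicate 2, where Bgn was lost. Without the 4 libraries with the most genes detected, an alternative chosen after seeing the data, 3 of the 9 fell (Lum, Ogn and Podn). In these bulk samples fewer cells of a type and less RNA per cell cannot be told apart.

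At 8 h 5 of the 9 were lower by the test, Dcn, Lum, Omd, Ogn and Podn, and 0 rose. The unadjusted count was 7 lower and 0 higher, with DESeq2 6 fell and 0 rose, and with limma-voom 4 fell and 0 rose. Over all genes 8.67% were called at 8 h by edgeR, 3.67% as lower and 5.00% as higher. DESeq2 called 665 genes as lower and 882 as higher, and limma-voom 490 and 561. The median of the 9 was -0.59, against -0.0175 over all genes. Leaving out any 1 of the 8 libraries other than CGRP replicate 3 left 3 of the 9 called. Without that one 5 were called, with Aspn and Prelp in place of Dcn and Lum. The calls over all genes moved as well, from 1210 to between 577 and 1279 with single libraries left out. Without the 4 libraries with the most genes detected 2 fell (Ogn and Podn), and without the 3 PBS 8 h libraries high in Gm10800, which leaves 1 PBS 8 h library, 1 fell (Ogn).

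The share of the library that the family took showed the same order of groups. The 9 genes together made up 2.94% ± 0.211 of all counts in PBS 4 h and 2.38% ± 0.191 in CGRP 4 h (SD, n = 4). In PBS 8 h the share was 2.93% ± 0.115 and in CGRP 8 h 2.52% ± 0.0348. The highest CGRP library at 4 h, 2.52%, lay below the lowest PBS library, 2.73%, and at 8 h the corresponding values were 2.56% and 2.82%. Most of these counts were Dcn.

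**Figure D2:**
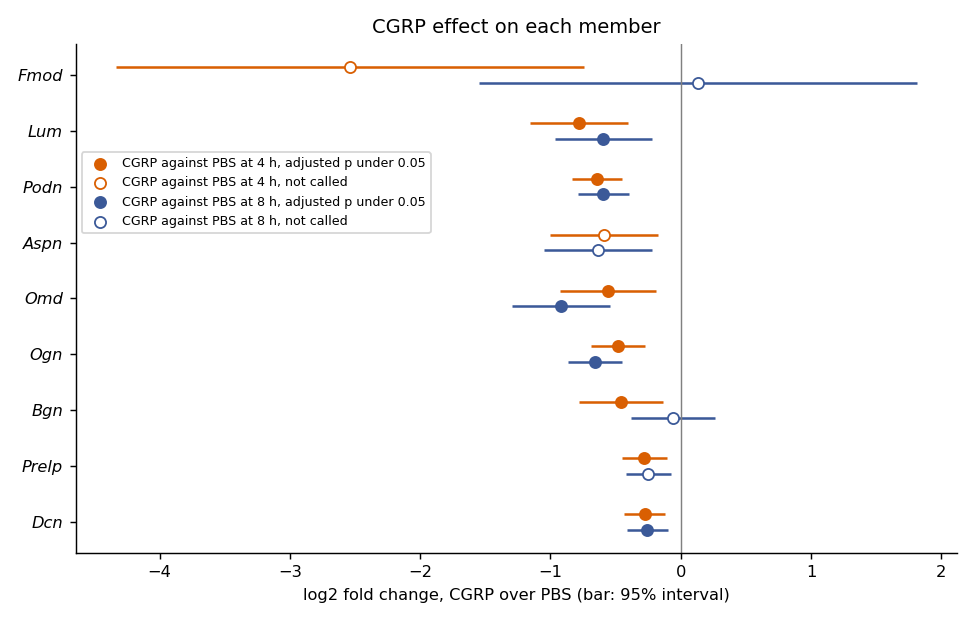
Log2 fold change of each member for CGRP over PBS at 4 h and at 8 h, with 95% intervals as bars; filled points passed an adjusted p of 0.05 and open points did not. Every 4 h point lies below 0, and at 8 h Bgn (-0.06) and Fmod (0.14) lie near 0 with intervals that cross it.

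Decorin of class I binds collagen I fibrils and TGF-beta. Dcn stood at 18252, 20619, 19966 and 22935 CPM in PBS 4 h replicates 1 to 4, and at 15517, 17374, 16276 and 18334 CPM in CGRP 4 h. The highest CGRP library, replicate 4, was just above the lowest PBS library, so the groups overlapped slightly. The fitted change was a fall of 17.5% (log2 fold change -0.28 ± 0.0768, adjusted p = 0.0160). At 8 h Dcn was at 19607, 19637, 21233 and 22211 CPM after PBS and at 17578, 17749, 16987 and 16945 CPM after CGRP. Here the groups did not overlap, and the fall was 16.3% (-0.26 ± 0.0768, adjusted p = 0.0387). The 4 h call was lost without PBS 4 h replicate 4 (adjusted p = 0.0706), CGRP 4 h replicate 1 (0.0740) or CGRP 4 h replicate 3 (0.0597). The 8 h call was lost with any 1 of the 8 libraries left out (adjusted p 0.0505 to 0.139), with log2 fold changes of -0.27 to -0.21.

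Biglycan, the close relative of decorin that also signals through Toll-like receptors when soluble, was lower at 4 h and near its PBS level at 8 h. Bgn measured 3874, 4641, 3008 and 3420 CPM in PBS 4 h and 1799, 3063, 3117 and 2896 CPM in CGRP 4 h. CGRP 4 h replicate 1 was far below its group, and the other 3 CGRP libraries lay close to the lowest PBS library, so the groups overlapped. The fall of 27.2% passed narrowly (-0.46 ± 0.152, adjusted p = 0.0487). Without CGRP 4 h replicate 1 the log2 fold change was -0.29 (adjusted p = 0.0926), and leaving out PBS 4 h replicate 1, 2 or 4 or CGRP 4 h replicate 2 or 4 also ended the call (adjusted p 0.056 to 0.147). In PBS 8 h the values were 3196, 3913, 3630 and 3132 CPM, and in CGRP 8 h 3295, 3235, 3649 and 3139 CPM. These ranges lay almost on top of each other, with a log2 fold change of -0.06 and a 95% interval of -0.38 to 0.26 (adjusted p = 0.874).

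Asporin is the class I member without a glycosaminoglycan chain, known as an inhibitor of TGF-beta in cartilage. Aspn gave 384, 432, 294 and 302 CPM in PBS 4 h and 155, 319, 246 and 218 CPM in CGRP 4 h. CGRP replicate 2 was higher than PBS replicates 3 and 4, so the groups overlapped, and the difference of -33.6% narrowly missed the threshold (-0.59 ± 0.194, adjusted p = 0.0508). At 8 h the PBS libraries had 289, 362, 329 and 300.2 CPM and the CGRP libraries 185, 187, 268 and 184 CPM. All CGRP libraries were below all PBS libraries, with CGRP replicate 3 nearest, yet the log2 fold change of -0.64 ± 0.194 was not called (adjusted p = 0.0558). Without CGRP 4 h replicate 2 the 4 h value was -0.76 (adjusted p = 0.00793), without PBS 4 h replicate 3 it was -0.65 (adjusted p = 0.0452), and without CGRP 8 h replicate 3 the 8 h value was -0.77 (adjusted p = 0.0225). DESeq2 called Aspn at 4 h (adjusted p = 0.00922) and at 8 h (adjusted p = 0.00697).

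Lumican, the class II member that regulates collagen fibril diameter and is prominent in cornea and dermis, had the largest fall among the genes called at 4 h. Lum was at 2385, 2653, 2073 and 2270 CPM in PBS 4 h and at 789, 1571, 1631 and 1463 CPM in CGRP 4 h. Every CGRP library was below every PBS library, and replicate 1 was lowest by a wide margin. The fall was 41.9% (-0.78 ± 0.176, adjusted p = 0.00691), and it stayed past the threshold with each of the 8 libraries left out in turn (-0.86 to -0.58). In PBS 8 h Lum had 2298, 2571, 1973 and 2277 CPM, and in CGRP 8 h 1591, 1254, 1593 and 1608 CPM. Again the groups did not overlap, and the fall of 33.8% was called narrowly (-0.59 ± 0.175, adjusted p = 0.0477). Leaving out any 1 of these 8 libraries ended the 8 h call (adjusted p 0.0632 to 0.132), as did limma-voom (0.0701) and RLE scaling (0.0539). Set against decorin, there were 11.6 ± 1.65 Lum counts per 100 Dcn counts in PBS 4 h and 8.03 ± 2.14 in CGRP 4 h. At 8 h there were 11.1 ± 1.67 after PBS and 8.75 ± 1.14 after CGRP (SD, n = 4). This ratio was not tested, and its groups overlapped at both times. The highest CGRP and lowest PBS libraries were 10.02 and 9.896 at 4 h, and 9.49 and 9.294 at 8 h.

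PRELP anchors collagen to heparan sulphate of basement membranes and carries no chain of its own. Prelp was at 1198, 1331, 1198 and 1365 CPM in PBS 4 h and at 1033, 1083, 1011 and 1073 CPM in CGRP 4 h. The groups did not overlap and the CGRP libraries lay close together. The fall was 17.5% (-0.28 ± 0.0834, adjusted p = 0.0244). PBS 8 h gave 1119, 1302, 1155 and 1153 CPM, and CGRP 8 h 895, 944, 1182 and 965 CPM. CGRP replicate 3 lay inside the PBS range and the other 3 below it. The 8 h value of -0.25 ± 0.0834 was not called (adjusted p = 0.0667), and without CGRP 8 h replicate 3 it was -0.32 (adjusted p = 0.00951). The 4 h call ended without PBS 4 h replicate 2 or 4 or CGRP 4 h replicate 1, 3 or 4 (adjusted p 0.0521 to 0.0825). Without strand information the 350 exon bases that Prelp shares with the antisense gene Gm15851 cannot be assigned. Gm15851 held 61 counts in all 16 libraries, which does not show whether reads in the shared bases were counted for either gene.

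Osteomodulin is a keratan sulphate proteoglycan of bone and, by group means, the least abundant member here. Omd had 28.8, 31.2, 33.1 and 29.7 CPM in PBS 4 h and 17.5, 32.6, 17.4 and 15.9 CPM in CGRP 4 h. One CGRP library, replicate 2, sat at the PBS level while the other 3 were well below it. The fall was 32.1% (-0.56 ± 0.179, adjusted p = 0.0352). The call held when CGRP 4 h replicate 2 was left out (-0.85, adjusted p = 0.00049) and was lost when any 1 of the other 7 was left out (adjusted p 0.0577 to 0.141). At 8 h the PBS libraries had 30.2, 32.8, 33.6 and 32.9 CPM and the CGRP libraries 14.1, 15.1, 20.6 and 18.9 CPM. The groups were far apart, and the fall of 47.1% was the largest of the family at 8 h (-0.92 ± 0.181, adjusted p = 0.00304). This call held with each of the 8 libraries left out in turn, but not without the 4 libraries with the most genes detected (-0.95, adjusted p = 0.0533) or the 3 high in Gm10800 (-0.93, adjusted p = 0.142).

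Osteoglycin of class III, also called mimecan, is a matrix protein of bone, vessels and muscle connective tissue. Ogn measured 931, 1114, 1161 and 1108 CPM in PBS 4 h and 754, 889, 723 and 726 CPM in CGRP 4 h. The groups did not overlap, with CGRP replicate 2 nearest to the PBS range. The fall was 28.3% (-0.48 ± 0.0994, adjusted p = 0.00191). In PBS 8 h it had 930, 946, 886 and 991 CPM and in CGRP 8 h 540, 505, 723 and 609 CPM. All CGRP libraries were below all PBS libraries, with replicate 3 highest among them. The fall was 36.7% (-0.66 ± 0.0997, adjusted p = 0.000326). Both calls held with each library left out in turn, with log2 fold changes of -0.54 to -0.43 at 4 h and -0.75 to -0.58 at 8 h.

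Podocan of class V binds collagen and is known to restrain smooth muscle cell proliferation. Podn was at 561, 664, 543 and 640 CPM in PBS 4 h and at 327, 399, 403 and 412 CPM in CGRP 4 h. The lowest PBS library was well above the highest CGRP library. The fall of 36.0% had the smallest adjusted p of the family at 4 h (-0.64 ± 0.0938, adjusted p = 6.85e-05). PBS 8 h gave 629, 636, 546 and 604 CPM, and CGRP 8 h 356, 376, 457 and 413 CPM. The groups again lay apart, with a fall of 33.7% (-0.59 ± 0.0937, adjusted p = 0.000515). Both calls held with each library left out in turn, and the 8 h call was lost without the 3 libraries high in Gm10800 (-0.58, adjusted p = 0.0647). The span of Podn overlaps that of Scp2 on the same strand without shared exon bases, and Scp2 was not called at 4 h (-0.08 ± 0.102, adjusted p = 0.666) or at 8 h (-0.09 ± 0.102, adjusted p = 0.661).

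**Figure D3:**
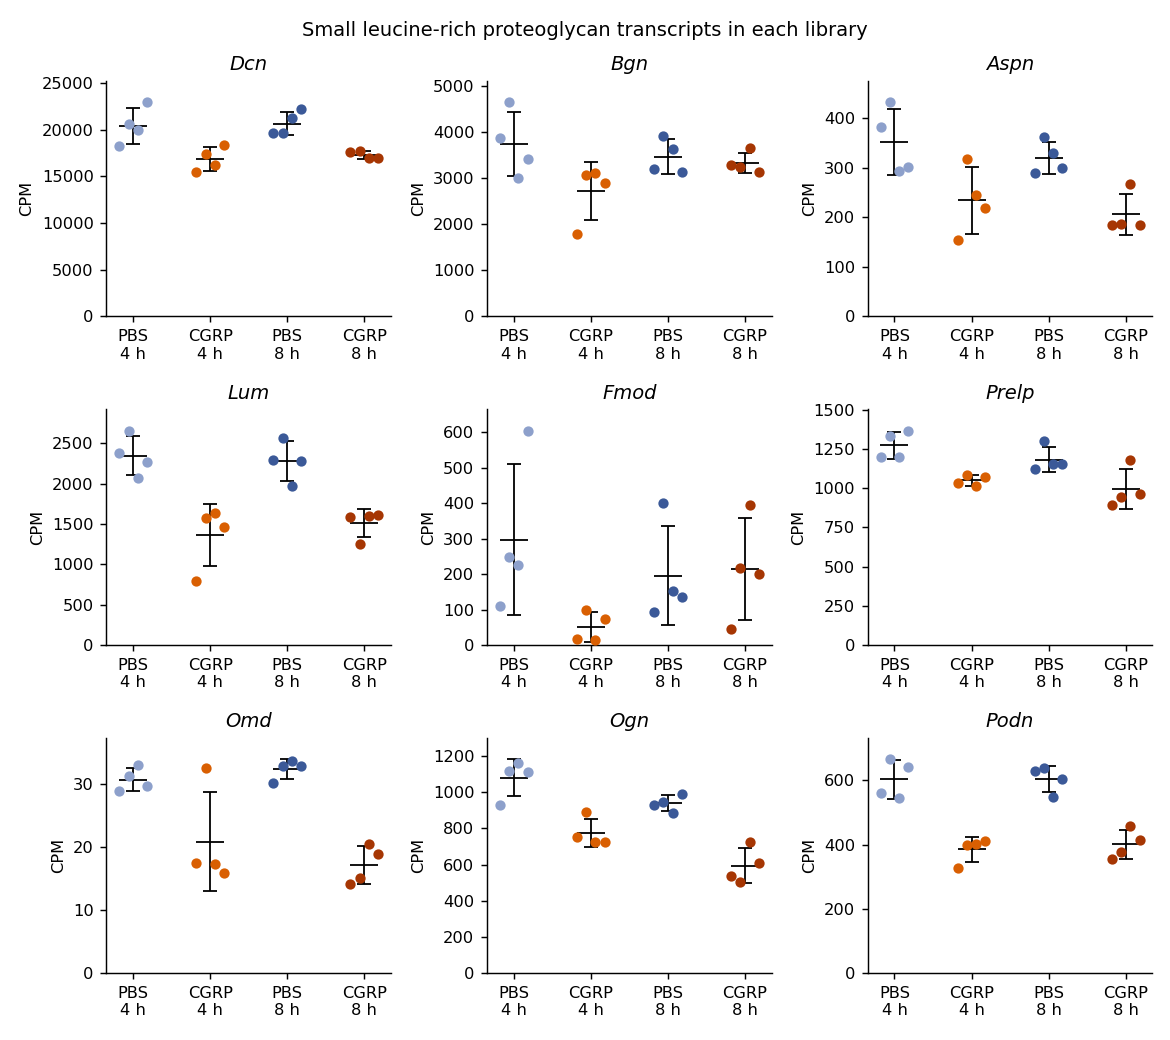
CPM of each of the 9 genes in every library, by group, with the group mean and SD; each axis starts at 0. Podn and Ogn lie lower after CGRP than after PBS without overlap at both times, whereas Bgn overlaps at both times.

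Counting groups rather than fitted changes, 5 of 9 genes had every CGRP 4 h library below every PBS 4 h library, namely Lum, Fmod, Prelp, Ogn and Podn. Over all genes tested 9.89% were separated this way. At 8 h 6 of 9 were separated, namely Dcn, Aspn, Lum, Omd, Ogn and Podn, against 6.71% of all genes. No member was separated in the other direction, as 8.92% of all genes were at 4 h and 8.17% at 8 h.

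Fibromodulin, the class II member that tendon expresses strongly and that acts in collagen cross-linking, varied most. Fmod gave 111, 248, 225 and 604 CPM in PBS 4 h and 17.3, 99.4, 14.5 and 74.4 CPM in CGRP 4 h. Every CGRP library was below every PBS library, although values within each group differed several-fold. The log2 fold change was -2.54 ± 0.828, with a 95% interval of -4.34 to -0.74 (adjusted p = 0.0558), so it was not called, whereas DESeq2 called it (adjusted p = 0.00729). In PBS 8 h Fmod had 92.5, 401, 153 and 136 CPM and in CGRP 8 h 45.7, 218, 396 and 199 CPM. The groups overlapped almost fully, with a log2 fold change of 0.14 ± 0.774 and an interval of -1.55 to 1.82 (adjusted p = 0.948). With single libraries left out the 8 h value ran from -0.34 to 0.76.

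Markers of tendon cells are set beside Fmod because its nearest profile was one of them. The gene most like it over the 16 libraries was Kera, its family relative and a tendon marker of the list used here. Kera was at 27, 24.7, 29.6 and 41.9 CPM in PBS 4 h and at 1.82, 23.3, 7.51 and 4.91 CPM in CGRP 4 h. Its groups did not overlap either, and its log2 fold change was -1.73 ± 0.634 (adjusted p = 0.0869), with 0.60 ± 0.623 at 8 h (adjusted p = 0.642). Chad (chondroadherin, a leucine-rich repeat protein of cartilage and tendon, chosen after its values were seen) was highest in PBS 4 h replicate 4 with 302 CPM, the library with the most Fmod. Chad was not among the 3 genes most like Fmod, and 1 shared peak does not show that they vary together.

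Genes of the tendon list were detected in the sorted cells, and whether tendon cells were present was not tested. Of its 12 genes 11 were tested, and Scx, the defining transcription factor, was under 1 CPM on average. The median log2 fold change of the 11 was -1.08 at 4 h, where 2 fell, 0 rose and 5 were lower at an unadjusted p under 0.05 (DESeq2 5 fell and 0 rose, limma-voom 2 fell and 0 rose). Comp (cartilage oligomeric matrix protein) fell by 1.08 ± 0.342 (adjusted p = 0.0494) and Fibin by 1.58 ± 0.270 on the log2 scale (adjusted p = 0.00126). At 8 h the median was -0.04 and Fibin alone fell, by 1.37 ± 0.266 (adjusted p = 0.00632). Over all genes 8.37% fell at 4 h and 3.67% at 8 h. The list summed to 2283 to 4398 CPM in PBS 4 h, 1716 to 3076 in CGRP 4 h, 2674 to 3928 in PBS 8 h and 2568 to 3424 in CGRP 8 h. The part of tendon cells in the Fmod values was not tested.

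**Figure D4:**
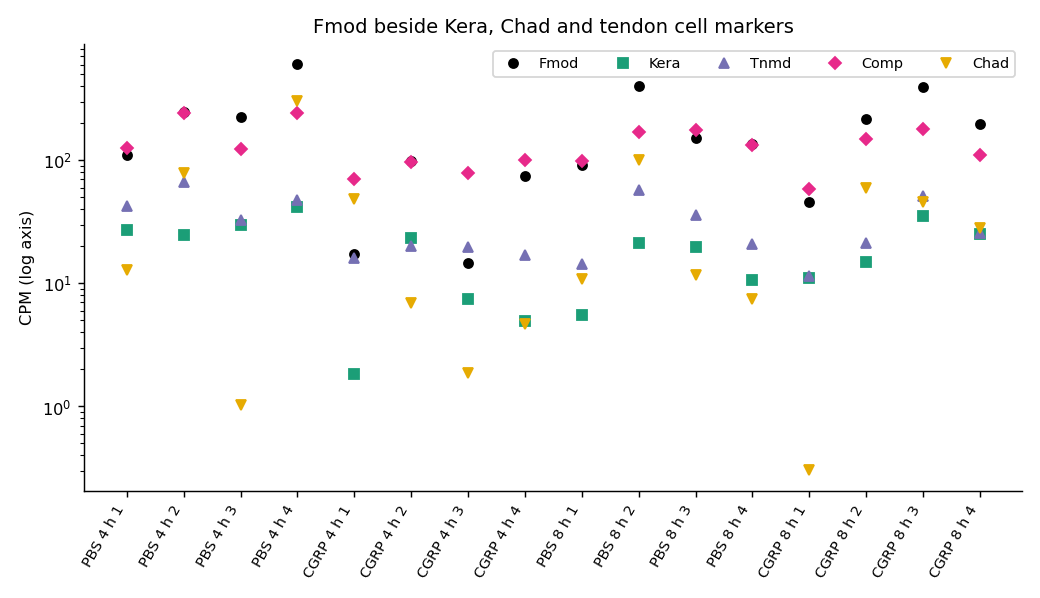
CPM of Fmod and of Kera, Tnmd, Comp and Chad in each library on a log axis; each point is 1 library. In CGRP 4 h Fmod runs from 14.5 to 99.4 CPM and Kera from 1.82 to 23.3 CPM, both below the PBS 4 h libraries.

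Whether the CGRP effect differed between times was tested as the effect at 8 h minus the effect at 4 h. By this test 0 of the 9 genes were called with edgeR, DESeq2 or limma-voom, 1 (Fmod) had an unadjusted p under 0.05, and 1.12% of all genes were called. For Fmod the difference was 2.67 ± 1.12 with a 95% interval of 0.23 to 5.11 (adjusted p = 0.293). For Bgn it was 0.40 ± 0.214 (interval -0.05 to 0.85, adjusted p = 0.425), and for Omd -0.36 ± 0.254 (interval -0.89 to 0.16, adjusted p = 0.559). The narrowest intervals were those of Dcn, -0.20 to 0.24 around 0.02, and of Prelp, -0.21 to 0.27 around 0.03. Bgn being called at 4 h and not at 8 h is thus not shown to be a difference between the times.

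Few members were called between the times. Between 8 h and 4 h after PBS 0 of 9 were called by edgeR, DESeq2 or limma-voom and 0 had an unadjusted p under 0.05, with 0.516% of all genes called. The widest change was that of Fmod, -0.61 with an interval of -2.29 to 1.08, and Ogn was at -0.20 ± 0.0992 (adjusted p = 0.398). After CGRP 1 of 9 was called, Ogn, against 7.26% of all genes, 3.05% of all being lower. Ogn fell by 0.38 ± 0.0995 on the log2 scale from 4 h to 8 h (adjusted p = 0.0211), and its ranges overlapped by a hair, 723 CPM being both the lowest value at 4 h and the highest at 8 h. That call was lost without CGRP 4 h replicate 2 (adjusted p = 0.0824), CGRP 8 h replicate 1 (0.0599) or CGRP 8 h replicate 2 (0.0877). Bgn was higher in every CGRP 8 h library than in every CGRP 4 h library without being called (0.29 ± 0.152, adjusted p = 0.306), and 6.69% of all genes were separated in that direction.

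The gene beside the chromosome 13 cluster fell at both times, as Omd and Ogn did, whereas Aspn, next to it, was lower without being called. Ecm2 had 357, 350.2, 368 and 365 CPM in PBS 4 h and 243, 270.1, 284 and 263 CPM in CGRP 4 h, and its groups were far apart. It fell by 0.44 ± 0.0854 at 4 h (adjusted p = 0.00105) and by 0.60 ± 0.0855 at 8 h on the log2 scale (adjusted p = 0.000195). Nol8, on the other side of Ogn, was at 0.51 ± 0.219 (adjusted p = 0.120) and 0.48 ± 0.223 (adjusted p = 0.195), not called. Cenpp, whose span on the reverse strand holds the whole cluster, had 156 counts in all libraries together and shares 7 exon bases with Aspn and 0 with Omd and Ogn. Among other neighbours Btg1 (beside Dcn), Haus7 (beside Bgn) and Btg2 (beside Fmod) were not called at either time, and Echdc2 (beside Podn) fell at 4 h by 0.49 ± 0.123 (adjusted p = 0.00791). With edgeR, Ecm2 was also the only call at either time among 10 further genes of the family, of which 6 were tested. Over all genes 16.2% were called at 4 h and 8.67% at 8 h.

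Enzymes that build the chains of decorin and biglycan were read in the same fits. Of 23 genes for chondroitin and dermatan sulphate synthesis 22 were tested, and at 4 h 6 rose and 0 fell, with 3 lower at an unadjusted p under 0.05, 0 fallen by DESeq2 and 1 by limma-voom. Their median was -0.04, and over all genes 7.84% rose at 4 h. Csgalnact1, which starts the chondroitin chain, had 60.7, 73.6, 95.1 and 66.4 CPM in PBS 4 h and 167, 194, 206 and 202.5 CPM in CGRP 4 h, so that the groups lay far apart. It rose by 1.38 ± 0.190 on the log2 scale (adjusted p = 0.000151). B3galt6, an enzyme of the linkage region, rose by 0.98 ± 0.210 (adjusted p = 0.00371), the chain-lengthening factor Chpf by 0.74 ± 0.165 (adjusted p = 0.00523) and the epimerase Dse, which makes dermatan sulphate, by 0.45 ± 0.108 (adjusted p = 0.00578). At 8 h 2 of the 22 rose, Csgalnact1 (1.22 ± 0.194, adjusted p = 0.00128) and the sulphotransferase gene Chst11 (1.11 ± 0.331, adjusted p = 0.0393), and 0 fell, with 1 lower at an unadjusted p under 0.05 and 0 by DESeq2 or limma-voom. Over all genes 5.00% rose at 8 h, so this count is near the background.

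Among the sugar donor genes, Ugdh, the UDP-glucose dehydrogenase that makes the UDP-glucuronic acid used for these chains and for hyaluronan, had 532, 480, 560 and 501 CPM in PBS 4 h and 2608, 2496, 2273 and 3012 CPM in CGRP 4 h. It rose by 2.33 ± 0.10 at 4 h (adjusted p = 3.45e-13) and by 0.70 ± 0.0966 at 8 h (adjusted p = 0.000121). The effect at 8 h was smaller than at 4 h by 1.62 ± 0.137 on the log2 scale (adjusted p = 4.28e-07). Of 12 donor genes 2 rose at 4 h, Ugdh and Ugp2 (0.72 ± 0.130, adjusted p = 0.000736), and at 8 h 3 rose and 1 fell. Over all genes 7.84% rose at 4 h, and 5.00% rose and 3.67% fell at 8 h. Uxs1, which makes the UDP-xylose that starts the linkage region, rose at 8 h by 0.54 ± 0.137 (adjusted p = 0.0160), and Papss2, which makes the sulphate donor, fell by 0.56 ± 0.124 (adjusted p = 0.00719). Of 5 tested keratan sulphate genes B4galt1 rose at 4 h (0.27 ± 0.0775, adjusted p = 0.0198) and 0 were called at 8 h by edgeR, DESeq2 or limma-voom or at an unadjusted p under 0.05. Both tyrosine sulphation genes were uncalled by all 3 tools at both times, with medians of 0.08 and 0.10.

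**Figure D5:**
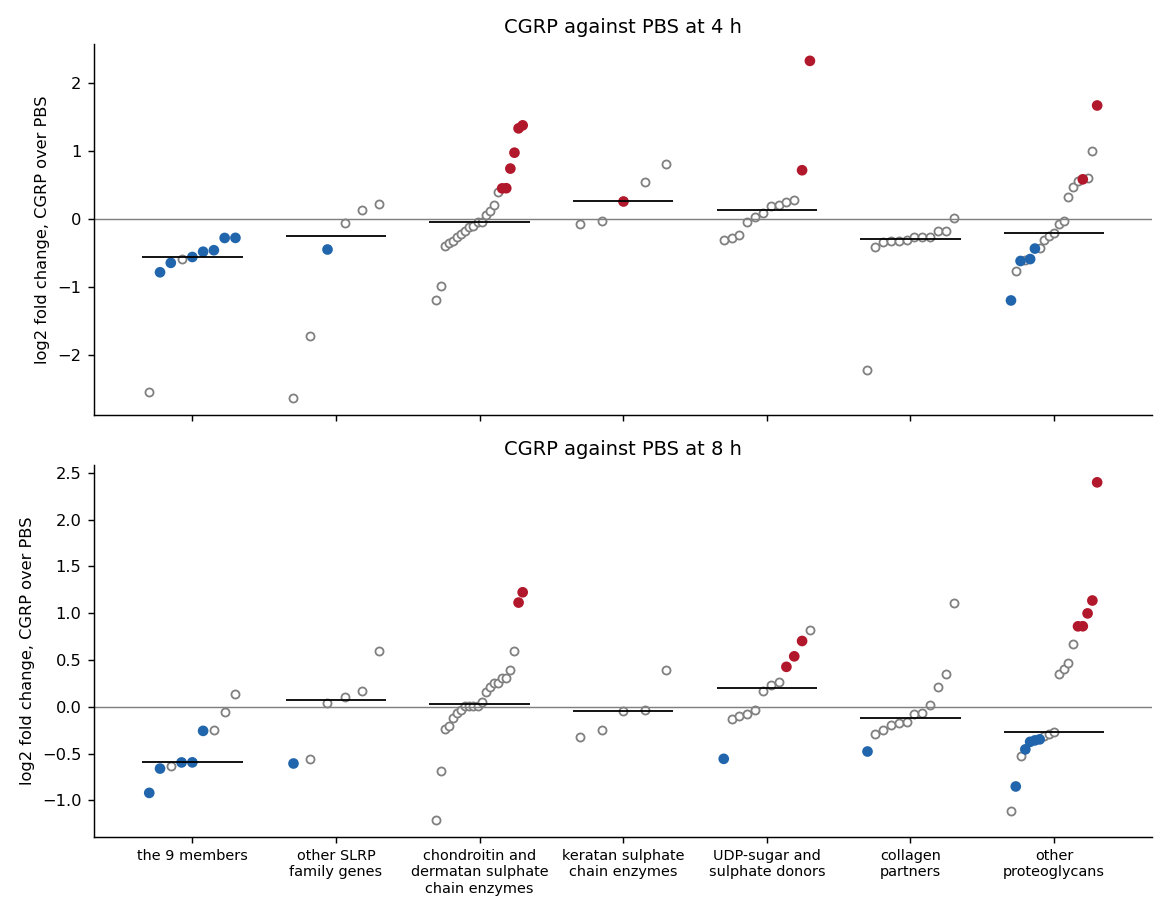
Log2 fold change of each tested gene for CGRP over PBS at 4 h (top) and 8 h (bottom), grouped by role; red points rose, blue points fell, open points were not called, and bars mark medians. The 9 members lie mostly below 0, with medians of -0.56 and -0.59, while 6 chain enzymes rose at 4 h with a list median of -0.04.

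The fibrillar collagens and associated collagens that these proteoglycans bind formed a list of 12 genes. Of the 12 genes 0 were called at 4 h by edgeR or limma-voom, 1 fell by DESeq2 and 6 were lower at an unadjusted p under 0.05, with a median of -0.29, while 16.2% of all genes were called. At 8 h 1 of the 12 was called, near the 8.67% of all genes. This was Col14a1, a fibril-associated collagen, which fell at 8 h by 0.47 ± 0.118 (adjusted p = 0.0154), and the median was -0.12. Col1a1 and Col3a1, given outside the naming rule as the main fibrillar chains, were at -0.18 ± 0.251 (adjusted p = 0.700) and -0.27 ± 0.235 (adjusted p = 0.503) at 4 h. Their standard errors were about as large as the whole change of Dcn.

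Other proteoglycans moved in both directions. At 4 h 2 of 19 tested rose and 4 fell. Over all genes 7.84% rose and 8.37% fell at 4 h, and 5.00% rose and 3.67% fell at 8 h. The 2 rises at 4 h are near that share. Prg4 (lubricin) rose by 1.67 ± 0.279 (adjusted p = 0.00147), and Sdc2 (syndecan 2, a heparan sulphate proteoglycan) fell by 0.62 ± 0.0803 (adjusted p = 2.03e-05), Gpc4 (glypican 4) by 0.43 ± 0.0876 (adjusted p = 0.00153) and Cspg4, also a pericyte marker, by 1.20 ± 0.199 (adjusted p = 0.000663). At 8 h 5 rose, led by Prg4 (2.40 ± 0.286, adjusted p = 0.000465) and Vcan (versican, 0.86 ± 0.146, adjusted p = 0.00162), and 5 fell, led by Spock2 (-0.85 ± 0.182, adjusted p = 0.00606) and Sdc2 (-0.35 ± 0.0801, adjusted p = 0.00891).

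Genes that act on the proteoglycan proteins, or that the proteins bind, were called in both directions, and 16.2% of all genes were called at 4 h and 8.67% at 8 h. Of 14 tested protease and inhibitor genes Timp2 fell at 4 h (-0.27 ± 0.0913, adjusted p = 0.0471). At 8 h Adamts4, an aggrecanase that also cleaves decorin and biglycan, rose by 2.02 ± 0.497 (adjusted p = 0.0177), Timp1 by 3.08 ± 0.662 (adjusted p = 0.0141) and Mmp14 by 0.49 ± 0.125 (adjusted p = 0.0186), while Timp2 fell by 0.31 ± 0.0914 (adjusted p = 0.0356). Of 19 tested ligands and receptors the TGF-beta receptor gene Tgfbr2 rose at 4 h (0.89 ± 0.132, adjusted p = 0.000137), as did Bmp2 (0.64 ± 0.135, adjusted p = 0.00221), and Tgfb3 (-0.57 ± 0.107, adjusted p = 0.000779) and Bmp4 (-0.39 ± 0.108, adjusted p = 0.0150) fell. At 8 h Igf1r (-0.64 ± 0.136, adjusted p = 0.00525) and Lrp1 (-0.25 ± 0.0653, adjusted p = 0.0203), a decorin receptor, fell. The 1 call among 14 proteases and inhibitors at 4 h is below the share over all genes, and the 2 among 19 ligands and receptors at 8 h are near it.

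Markers of stromal subsets are given beside the members. In the Col15a1 and Smoc2 subset list 5 of 12 fell at 4 h, 0 rose (also 0 by DESeq2, by limma-voom and at an unadjusted p under 0.05), and the median was -0.30, while 8.37% of all genes fell. Vwa1 fell by 0.93 ± 0.117 (adjusted p = 1.51e-05), Smoc2 by 0.59 ± 0.0834 (adjusted p = 5.02e-05), Gdf10 by 1.06 ± 0.159 (adjusted p = 0.000267) and Sparcl1 by 0.32 ± 0.0894 (adjusted p = 0.0167). The list summed to 13513 to 15286 CPM in PBS 4 h and 8729 to 12408 in CGRP 4 h, and to 13457 to 15034 and 11655 to 13201 at 8 h, where 3 fell. In the Dpp4 and Pi16 list 2 rose and 1 fell at 4 h, and 1 rose and 1 fell at 8 h, of 12, against 16.2% and 8.67% of all genes called. Of 11 tested mSC markers 2 rose, among them Pdpn (1.15 ± 0.213, adjusted p = 0.00242), and 4 fell at 4 h, among them Pdgfra (-0.40 ± 0.0654, adjusted p = 0.000219), Pdgfrb (-0.65 ± 0.113, adjusted p = 0.000440) and Osr1 (-0.74 ± 0.112, adjusted p = 0.000101). At 8 h 2 of these rose and 1 fell. Pericyte and smooth muscle markers gave 2 falls of 7 tested at 4 h. Myofibre markers summed to between 98.7 and 249 CPM, and of 9 tested Acta1 fell at 8 h (-0.78 ± 0.195, adjusted p = 0.0204). The part of these subsets in the levels of the 9 genes was not tested.

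Profiles of other genes were compared with each member over the 16 libraries, as the root mean square difference between centred log2 CPM among the 9884 genes that averaged 5 CPM or more. Since the members move with CGRP, likeness includes the group differences, and the measure is a description. Within the family, Podn was among the 3 genes most like Lum (0.193, after Olfml3 with 0.131 and Mfap2 with 0.185), and Ogn was second for Omd (0.221, after Peg3 with 0.205 and before Thsd1). Olfml3, a secreted olfactomedin-like matrix protein, was also close to Aspn (0.189), after Bace2 (0.170) and Srpx2 (0.174). Dcn was nearest to Tmem59 (0.0739), Scpep1 and Ndfip1, and Prelp to Serpinf1 (0.0663), Itm2b and Igfbp6. Bgn was nearest to the collagen prolyl isomerase gene Fkbp10 (0.128), Rab31 and Gusb, Ogn to Naaa (0.154), Tmeff2 and Rarres2, and Podn to H2-T23 (0.122) and Thrb. For Fmod even the nearest gene, Kera, differed by 0.881, against its own spread of 1.47, and P2ry6 and Sybu followed.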

How the data were processed

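RNA-seq libraries of 16 sorted mSC samples were analysed. The authors deposited raw counts of reads for each gene, made with STAR 2.5.4 on mm10 and featureCounts, per the submitters' processing notes. The sources used here give neither the annotation nor the strand setting nor the handling of multiply mapped reads. Per the labels, the libraries were made by oligo(dT) priming and Nextera XT from polyadenylated RNA. The kit does not mark strand and has no molecular identifiers, so counting errors cover counting only. Of 52997 symbols 49330 matched GENCODE M21 uniquely, for positions and exon lengths. Over the 24 replicate pairs within groups, chi-square was 6.52 to 22.7 times its degrees of freedom, so none differed by less than the sampling noise.

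Counts were fitted with edgeR 4.0.16 in R 4.3.3 (filterByExpr, TMM, robust quasi-likelihood, 1 mean per group, 12 residual degrees of freedom). Tests were two-sided with Benjamini-Hochberg adjustment over 13949 genes and no fold threshold. Intervals are 95%. The common biological coefficient of variation was 17.4%. Alternatives were RLE and upper-quartile scaling, DESeq2 1.42.0, limma-voom (limma 3.58.1), no count filter, only the groups compared, a replicate block and each library left out. The fit was also run on simulated data with known folds, which did not model the libraries that stood apart. Replicates are separate samples per the labels, and p-values measure only the spread between them. The members and gene lists were chosen with earlier results of these data known. The 9 members are always named. From a list up to 4 called genes per time with the smallest p are named, from a list without calls up to 2, and for each member its 3 most similar genes and its chromosomal neighbours; 1 of the genes most similar to Podn is not reported here. In the ligand list 22 symbols stood for 20 genes of the table. Promoter windows are from RefSeq (GRCm38.p6).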

Additional observations from a re-analysis of the deposited data

Results flagged for a closer look

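Of 36 sets of 4 replicates (9 genes in 4 groups), 5 held a library far from the other 3, by Dixon's criterion at the 95% level. Chance flags about 1 group in 20. All 5 were in CGRP groups. Bgn was lowest in CGRP 4 h replicate 1 with 1799 CPM, and Podn was lowest in the same library with 327.4 CPM. Omd was highest in CGRP 4 h replicate 2 with 32.57 CPM, at the level of the PBS libraries. Lum was lowest in CGRP 8 h replicate 2 with 1254 CPM, and Aspn was highest in CGRP 8 h replicate 3 with 268 CPM.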

How the results depend on the processing

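All 9 genes were lower after CGRP at 4 h under every alternative, and no called value changed sign. Members called at 4 h numbered 3 to 7 with single libraries left out and 3 without the 4 libraries with the most genes detected, an alternative chosen after seeing the data. At 8 h they numbered 3 to 5, 2 without those 4 libraries, and 1 (Ogn) without the 3 libraries high in Gm10800, also chosen after seeing the data. That last fit leaves 1 PBS 8 h library, which is assumed to vary like the other groups. Without those 3 the log2 fold changes at 8 h were -0.35 for Dcn, -0.58 for Lum, -0.93 for Omd and -0.58 for Podn. For time after CGRP the count was 0 to 1 with single libraries left out and 0 with only the groups compared. Bgn at 4 h was also lost under RLE scaling (adjusted p = 0.0571), limma-voom (0.0578), no filter (0.234) and only the groups compared (0.154), and Omd at 4 h with only the groups compared (0.0745). Lum at 8 h was also lost with no filter (0.190). Upper-quartile scaling called Aspn at both times and Prelp at 8 h (adjusted p = 0.0416, 0.0483 and 0.0340), limma-voom called Aspn at 4 h (0.0390), and Aspn was called at 8 h with only the groups compared (0.00307).

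Over all genes, single libraries left out gave 1481 to 2226 calls at 4 h, 577 to 1279 at 8 h, 80 to 196 for the difference, 17 to 280 for time after PBS and 666 to 953 for time after CGRP. At 8 h, 191 genes were called without the 4 libraries and 146 without the 3. For the difference, 387 were called with DESeq2, 456 with no filter, 63 without the 4 and 53 without the 3. For time after PBS, the values were 323 with DESeq2, 422 with no filter, 131 with only the groups compared and 20 without the 3.

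Same-numbered replicates showed little shared deviation (24 pairs, r from -0.0791 to 0.0919, against -0.0829 to 0.0589 in the 72 other pairs). A library was most like its own number in 18 of 48 comparisons. No label says that equal numbers share an animal, day or batch, and correlations this low cannot exclude it. With a replicate block 9 members were called at 4 h and 5 at 8 h, with 2167 and 1100 genes over the table, Aspn called at 4 h (adjusted p = 0.0182) and 8 h (0.0279), Fmod called at 4 h (0.0230), and Lum not called at 8 h (0.0779). Depth limits Omd and Fmod most. The cause of these shifts was not tested.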
